A study of Arabidopsis thaliana with 18 samples.

Results

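Transcripts of 10 late embryogenesis abundant (LEA) genes that are best known from seeds were followed in Arabidopsis thaliana, out of 27655 genes counted. The samples were whole rosettes, called leaves below. The 10 genes were chosen by their levels, near 0 reads in watered leaves and higher under drought, so their drought levels against watered levels are given as a description with no test. They were LEA7 (AT1G52690), LEA4-5 (AT5G06760), LEA18 (AT2G35300), LEA4-1 (AT1G32560), AT3G17520, AT2G42560, M10 (AT2G41280), AT5G44310, EM1 (AT3G51810) and EM6 (AT2G40170). Rosettes were taken at day 32 from 3 genotypes: wild-type Col-0 (WT), jar1-11, labelled a knockdown line of JAR1 (SALK_034543), and JAR1-OE, a line overexpressing the JAR1.1 form. Control plants were watered throughout, and drought plants were watered for 18 days and then left without water for 14 days, at 22 °C with 16 h of light. Each of the 6 groups had 3 libraries, which the labels call biological replicates with no word on whether each was 1 rosette or several pooled, so the p-values rest on the variation among these libraries. The labels do not say which promoter drives the transgene or whether JAR1-OE is 1 line.

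LEA proteins are small, very hydrophilic proteins that accumulate late in seed development, when the embryo dries out and becomes tolerant of desiccation. Many are unstructured in water and fold as they lose it, and they protect membranes and enzymes in the dry state. Their genes are classic targets of abscisic acid (ABA): bZIP factors such as ABI5 and the ABFs bind ABA-responsive elements built on an ACGT core in the promoters, and ABI3, FUS3 and LEC factors act with them in the embryo. Vegetative tissue switches on part of the family when it loses water. JAR1 joins jasmonic acid to isoleucine, which makes the active jasmonate hormone.

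The 250 bases in front of the annotated start of each gene were read from the TAIR10.1 assembly (RefSeq), and 4 of them are printed because they hold the ABA-responsive core in different arrangements: LEA7 (chr1:19619474-19619723, plus strand), LEA18 (chr2:14863413-14863662, minus strand), AT5G44310 (chr5:17849537-17849786, minus strand) and EM1 (chr3:19214472-19214721, plus strand). Sequences run 5′ to 3′ toward the gene, and capitals mark each match to ACGTG on either strand.
LEA7: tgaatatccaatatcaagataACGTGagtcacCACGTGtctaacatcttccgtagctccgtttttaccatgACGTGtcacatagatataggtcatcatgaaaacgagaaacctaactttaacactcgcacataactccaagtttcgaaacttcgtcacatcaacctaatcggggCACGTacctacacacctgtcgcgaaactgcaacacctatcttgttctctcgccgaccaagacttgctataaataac
LEA18: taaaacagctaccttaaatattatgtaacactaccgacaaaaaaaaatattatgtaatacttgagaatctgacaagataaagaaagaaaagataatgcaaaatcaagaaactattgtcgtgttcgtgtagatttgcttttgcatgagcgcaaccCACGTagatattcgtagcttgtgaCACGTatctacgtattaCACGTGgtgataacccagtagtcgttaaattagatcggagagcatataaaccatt
AT5G44310: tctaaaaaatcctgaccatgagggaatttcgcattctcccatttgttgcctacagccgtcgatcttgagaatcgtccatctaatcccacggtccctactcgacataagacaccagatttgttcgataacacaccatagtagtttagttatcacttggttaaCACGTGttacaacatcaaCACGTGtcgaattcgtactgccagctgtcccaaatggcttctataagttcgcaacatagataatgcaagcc
EM1: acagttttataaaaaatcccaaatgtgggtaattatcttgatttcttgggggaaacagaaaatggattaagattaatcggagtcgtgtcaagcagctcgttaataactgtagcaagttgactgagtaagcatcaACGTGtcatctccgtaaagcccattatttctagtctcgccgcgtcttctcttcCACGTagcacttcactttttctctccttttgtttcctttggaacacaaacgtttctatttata
LEA7, with 3 exons, is annotated at 19619724 to 19621534 of chromosome 1, LEA18 with 1 exon at 14862779 to 14863412 of chromosome 2, AT5G44310 with 2 exons at 17847781 to 17849536 of chromosome 5, and EM1 with 3 exons at 19214722 to 19215831 of chromosome 3. ACGTG, on either strand, was found in front of 10 of the 10 genes, of 65.9% of 41 other LEA genes and of 22.9% of 27443 protein-coding genes. The palindrome CACGTG (the G-box), each copy of which holds 2 overlapping ACGTG matches, stood in front of 9 of the 10, 31.7% of the other LEA genes and 6.49% of all. EM1 was the member without it, as its printed sequence shows: its 2 cores lie apart, while the palindrome occurs 2 times in front of AT5G44310 and of LEA4-1. CCGAC, the core of the dehydration-responsive element bound by DREB factors, was found in front of 5 of the 10, of 31.7% of the other LEA genes and 12.0% of all genes. CATGCA, the RY core bound by the ABI3 and FUS3 class in seeds, occurred in 2 windows, those of LEA18 and LEA4-1, in 14.6% of the other LEA genes and in 8.43% of all. These matches describe letters in a window and not binding. The window of LEA4-1 overlaps its neighbour AT1G32550.

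**Figure D1:**
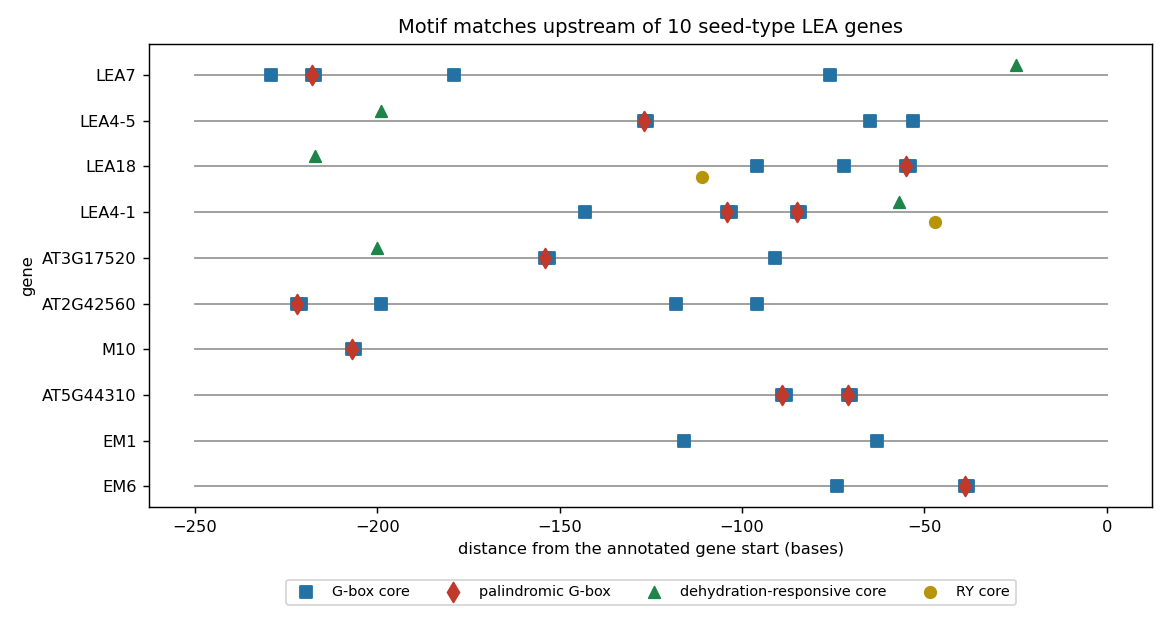
Positions of 4 motifs in front of the 10 genes. The x axis is the distance of the first base of a match from the annotated gene start in bases, and each row is 1 gene. Squares are ACGTG, diamonds CACGTG, triangles CCGAC and circles CATGCA, on either strand. All 10 genes hold squares, and the row of EM1 has no diamond.

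The genotypes and libraries were checked first. Library depth ran from 4716155 to 9506727 reads. Levels are in CPM, reads relative to library size, and 3 reads amounted to 0.316 to 0.636 CPM. JAR1 (AT2G46370) stood at 22.3, 23.4 and 30.0 CPM in watered WT and at 25.6 to 40.4 CPM in WT under drought. In jar1-11 it was at 5.19 to 6.61 CPM with water and 1.63 to 3.99 CPM under drought, while JAR1-OE, at 21.5 to 38.2 CPM on the endogenous gene, overlapped WT. The separate transgene entry had 26 to 558 reads in the 6 JAR1-OE libraries and 0 in the other 12. Markers of photosynthetic leaf cells were present in every library: the summed level of 6 (among them RBCS1A and CA1) was 7547 to 8697 CPM in watered WT, 5895 to 7601 CPM in watered jar1-11 and 12981 to 19498 CPM in watered JAR1-OE. Under drought it was 1963 to 2571 CPM in WT, 686 to 933 CPM in jar1-11 and 5119 to 7685 CPM in JAR1-OE. The summed level of 3 root markers was 3.31 to 12.7 CPM in watered JAR1-OE, 0.323 to 1.34 CPM in watered WT and 0 in watered jar1-11. PYK10 made up nearly all of the root sum in watered JAR1-OE, with 84, 19 and 80 reads. There IRT1 had 0 reads in each library and AT5G43350, the remaining root marker, had 2, 0 and 0. Under drought the root sum was at most 1.03 CPM in WT, 0.136 CPM in jar1-11 and 0.977 CPM in JAR1-OE.

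The labels number drought libraries on from the controls, and they are numbered 1 to 3 here in label order. WT drought 1 stood apart from the other WT drought libraries. The summed level of 7 flower identity genes was 40.7 CPM in WT drought 1 against 0.251 and 0.301 CPM in the other two, and that of 4 pollen and tapetum genes was 129 CPM against 1.00 and 0.452 CPM. JAR1-OE drought libraries also held them, with 12.5 to 40.7 CPM of flower genes and 14.3 to 203 CPM of pollen and tapetum genes, while jar1-11 drought had 0.894 to 1.63 and 0.596 to 1.76 CPM. In the 9 watered libraries these sums were at most 5.74 and 3.31 CPM. All 7 flower genes and all 4 pollen and tapetum genes had reads in WT drought 1, with PISTILLATA, a petal and stamen identity gene, at 18.5 CPM. By the summed level of the members, drought libraries with more flower transcripts lay below those with few. The order did not hold in each member: LEA18 was at 18.7 CPM in WT drought 1 and 16.4 CPM in WT drought 2. Within JAR1-OE drought, library 1 had the lowest member sum, 282 CPM, and also the lowest flower sum, 12.5 CPM. The part of flower tissue in the LEA levels was not tested. Results that rest on WT drought 1 are also given without it.

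Of the members, 8 passed the filter on low counts and 2, M10 and EM6, did not. Those that passed did so through their drought libraries, since in watered leaves most had fewer than 10 reads a library. Values below are CPM scaled by TMM, in the order of the libraries 1, 2 and 3. Levels are compared between groups within a gene, because 3' tag counts are not levels per length, and in whole leaves fewer cells of a type and less RNA per cell cannot be told apart.

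**Figure D2:**
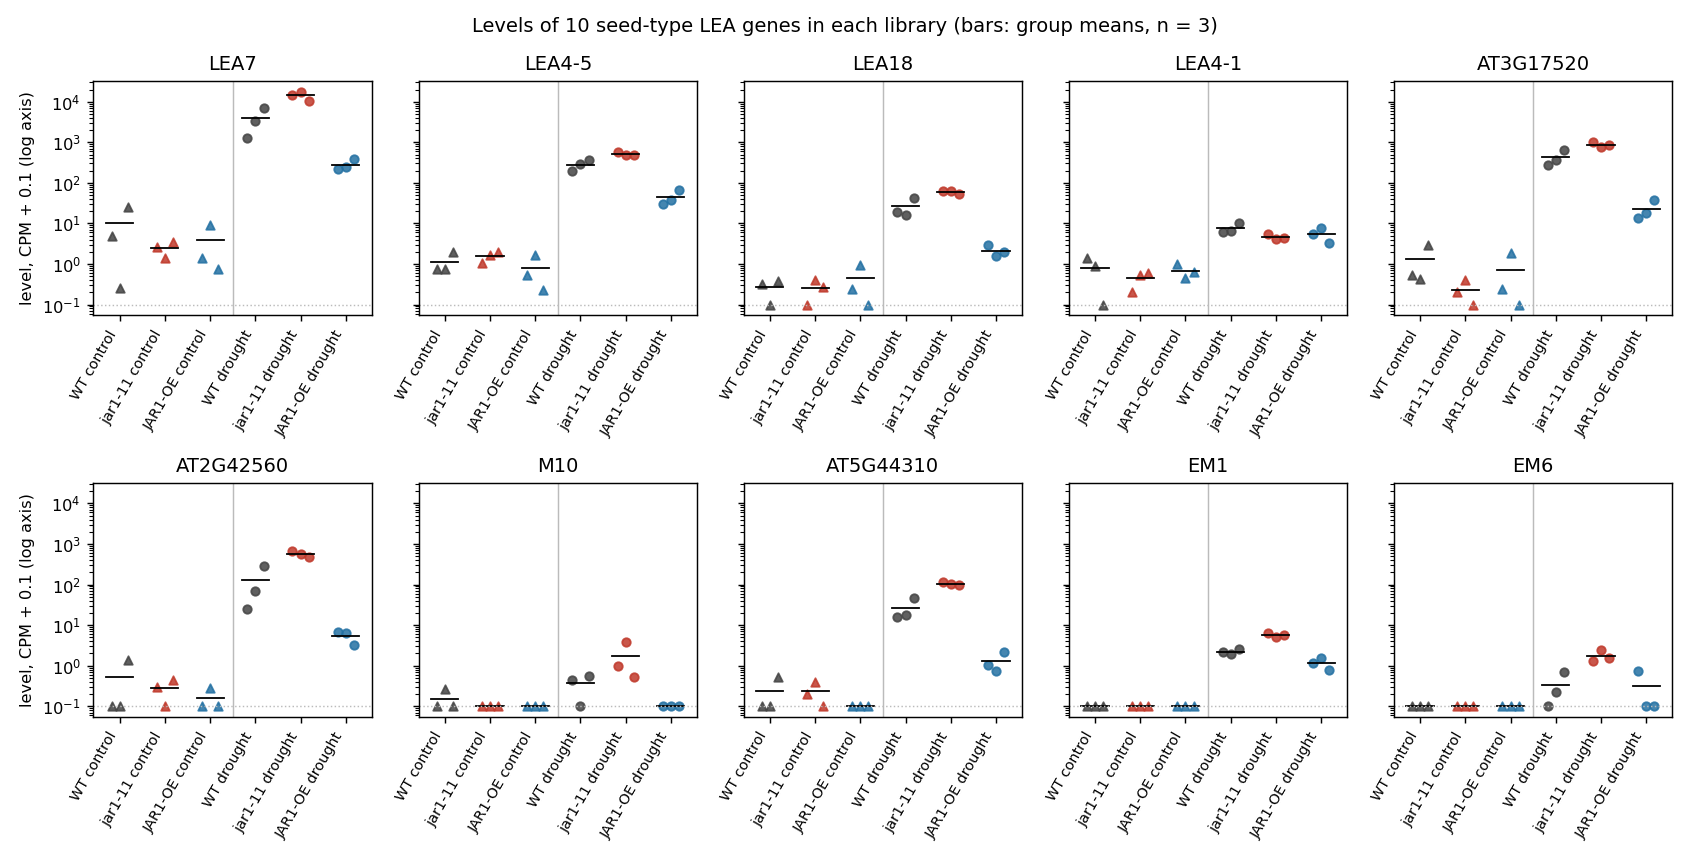
Level of each of the 10 genes in each of the 18 libraries, in CPM with 0.1 added, on a log axis. Triangles are watered libraries, circles drought libraries, and black bars the means of the 3 libraries of a group. In LEA7, LEA4-5, LEA18, AT3G17520, AT2G42560, AT5G44310 and EM1 the drought levels step down from jar1-11 to WT to JAR1-OE, and in LEA4-1 they do not.

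4 members encode LEA_4 proteins, which form long amphipathic helices as they dry. LEA7 was measured at 4.90, 0.162 and 25.2 CPM in watered WT and at 1309, 3305 and 7014 CPM in WT under drought. In jar1-11 it went from 2.48, 1.31 and 3.35 CPM to 14644, 17689 and 10600 CPM. In JAR1-OE it went from 1.33, 9.22 and 0.655 CPM to 220 CPM, 244 CPM and 379 CPM. No drought library overlapped a watered one in any genotype, and all 3 JAR1-OE drought libraries lay below the lowest of WT, whose own libraries were uneven. Pooled reads were 346-fold higher under drought in WT, 6290-fold in jar1-11 and 84.8-fold in JAR1-OE (95% counting intervals 301 to 399, 4809 to 8397 and 66.7 to 110, which cover counting error only). WT control 3 held 180 of the 203 watered WT reads and JAR1-OE control 2 held 53 of the 67 of JAR1-OE. Without WT control 3 the WT ratio was 1829 (1219 to 2886), and without JAR1-OE control 2 that of JAR1-OE was 290.05 (173 to 531). Leaving out WT control 2 or WT drought 3 gave 227 and 216 in WT. LEA7 overlaps AT1G52695 on the other strand, and AT1G52695 had 0 reads in every library.

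AT3G17520, a LEA_4 gene without a common name, was at 0.445, 0.323 and 2.80 CPM in watered WT and at 270 CPM, 370 CPM and 643 CPM under drought. In jar1-11, 3 reads in all 3 watered libraries together stood against 993, 780 and 866 CPM under drought. In JAR1-OE its watered libraries had 0 to 1.74 CPM and its drought libraries 13.8, 17.9 and 37.4 CPM. Again the 3 genotypes did not overlap under drought. The pooled ratio was 319 in WT (215 to 499), 42.5 in JAR1-OE (23.5 to 85.7) and 6584 in jar1-11, where the 3 watered reads give an interval of 2252 to 31929. The watered WT reads lay mostly in WT control 3, with 20 of 24, and those of JAR1-OE in JAR1-OE control 2, with 10 of 11. Without these libraries the ratios were 1149 in WT (4 watered reads, 449 to 4219) and 334 in JAR1-OE (1 watered read, 59.7 to 13222). Leaving out JAR1-OE control 3 gave 26.4, and leaving out jar1-11 control 2 gave 13738 on 1 watered read (2465 to 542653).

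AT2G42560, another LEA_4 gene found in dry seeds, had 0, 0 and 9 reads in watered WT and reached 25.3, 69.1 and 286 CPM under drought. Its WT drought libraries were uneven, 127 ± 140 CPM (SD, n = 3), with WT drought 1 lowest. In jar1-11 drought it reached 673 CPM, 577 CPM and 466 CPM, and in JAR1-OE drought 6.58, 6.35 and 3.13 CPM, after 4 reads and 1 read in the watered libraries of these lines. AT5G44310, the last of this type, was measured at 16.1, 17.2 and 47.2 CPM in WT drought, 114, 103 and 97.6 CPM in jar1-11 drought and 0.921, 0.652 and 2.04 CPM in JAR1-OE drought. With water it had 3 reads in WT, 3 in jar1-11 and 0 in JAR1-OE, each over 3 libraries. For both genes the jar1-11 drought libraries lay close together and above all WT libraries. The fold over watered JAR1-OE was 8.27 for AT5G44310, taking 3 reads over the group as the floor and not counting the error of the drought reads. Leaving out 1 library lowered this value to 5.13 (without JAR1-OE control 3).

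LEA4-5, LEA18 and LEA4-1 form the LEA_1 group (group 4), small proteins that protect enzymes from drying in the test tube. LEA4-5 was detected in all 18 libraries, at 0.131 to 1.84 CPM with water. Under drought it reached 192, 284 and 361 CPM in WT, 578 CPM, 473 CPM and 492 CPM in jar1-11 and 30.4, 37.8 and 64.9 CPM in JAR1-OE, so that no library of 1 genotype overlapped another. LEA18 had 3 reads in watered WT, 3 in watered jar1-11 and 6 in watered JAR1-OE. Its drought levels were 18.7, 16.4 and 43.2 CPM in WT, 63.3, 61.8 and 51.6 CPM in jar1-11 and 2.76, 1.47 and 1.90 CPM in JAR1-OE. The pooled ratio over watered leaves was 7.0 in JAR1-OE (2.97 to 20.1), against 153 in WT (3 and 527 reads, 52.1 to 744) and 449 in jar1-11 (3 and 1127 reads, 153 to 2178). JAR1-OE control 2 held 5 of the 6 watered JAR1-OE reads, and the ratio was 30.0 without it (1 watered read, 5.11 to 1211) and 4.34 without JAR1-OE control 3. In WT it was 99.8 without WT control 2 and 275 without WT control 3, and in jar1-11 it was 256 without control 1 and 936 without control 2, each on 1 to 3 watered reads.

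LEA4-1 showed another order. It stood at 6.16, 6.40 and 9.94 CPM in WT drought, 5.51, 4.07 and 4.20 CPM in jar1-11 drought and 5.53, 7.66 and 3.13 CPM in JAR1-OE drought. JAR1-OE libraries overlapped both other genotypes, and jar1-11 lay below WT rather than above it. Its pooled drought ratios were 12.1 in WT (6.58 to 24.8), 14.8 in jar1-11 (6.90 to 38.0) and 8.91 in JAR1-OE (4.90 to 17.8), whose intervals overlap. Leaving out WT control 1 or 3 gave 19.9 and 7.26 in WT, and leaving out jar1-11 control 1 gave 9.86 in jar1-11. Across the 9 drought libraries the 21 pairs of the other tested members had Pearson correlations of log2 CPM between 0.846 and 0.998 (median 0.967), while the 7 pairs with LEA4-1 lay between -0.047 and 0.081. The 9 points share their 3 genotypes and library sizes, so these correlations are a description.

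EM1 and EM6 encode the Em proteins, among the most abundant LEA proteins of the dry embryo and standard targets of ABI5. Both had 0 reads in all 9 watered libraries, which allows up to 3 reads over a group. EM1 was found in all 9 drought libraries, at 2.05, 1.88 and 2.41 CPM in WT, 6.26, 4.88 and 5.67 CPM in jar1-11 and 1.05, 1.47 and 0.680 CPM in JAR1-OE. Against a floor of 3 watered reads over the group it was 12.5-fold, 41.8-fold and 7.0-fold higher, not counting the error of the drought reads. These values fell to 7.49 without WT control 3, 23.8 without jar1-11 control 1 and 4.34 without JAR1-OE control 3. EM6 had 0, 1 and 4 reads in WT drought, 8, 17 and 7 in jar1-11 drought and 5, 0 and 0 in JAR1-OE drought, so in WT and JAR1-OE its drought and watered libraries overlapped. M10, of the small AtM type, was as rare, with 6, 27 and 2 reads in jar1-11 drought, 2, 0 and 3 in WT drought and 0 in JAR1-OE with or without water. Of these 3 genes only EM1 separated drought from control in every genotype.

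The rule asked for watered levels near 0 and higher drought levels, and its edges can be seen in single members. LEA7 in watered WT, at 10.1 ± 13.3 CPM (SD, n = 3), had most of its reads in WT control 3, which held 227 of the 274 reads of all members in watered WT. At the other edge, M10 in WT had 1 watered read and 5 drought reads, a ratio of 4.35 (0.487 to 206) that rests on 1 read in WT control 2. Among other LEA genes with similar shape that were outside the group, AT3G02480 rose from 1.08 ± 0.938 to 178 ± 87.3 CPM in WT and LEA76 from 0 to 6.66 ± 1.76 CPM.

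Under drought the genotypes were compared directly. The rule for the genes spoke of watered levels and of drought levels per genotype, though not of a difference between genotypes. The drought levels compared here are thus among the values it looked at. The genes were also chosen with earlier results of these data known. For both reasons the p-values and counts of members are not independent of the choice and serve as a description. All tests are edgeR's quasi-likelihood test with Benjamini-Hochberg adjustment over 17678 genes. In jar1-11 against WT, 5 of the 8 tested members were higher and 0 lower, where 16.6% of all tested genes were higher and 17.9% lower. AT5G44310 was higher by 1.97 ± 0.35 on the log2 scale (SE, adjusted p = 4.96e-04), AT2G42560 by 2.17 ± 0.55 (adjusted p = 0.00545), EM1 by 1.40 ± 0.39 (adjusted p = 0.0138), LEA18 by 1.18 ± 0.33 (adjusted p = 0.0105) and LEA4-5 by 0.88 ± 0.30 (adjusted p = 0.0270). LEA7, with 1.88 ± 0.73, and AT3G17520, with 1.04 ± 0.41, missed the threshold (adjusted p = 0.0527 and 0.0590) though none of their libraries overlapped. LEA4-1 had the opposite sign, -0.70 ± 0.44 (adjusted p = 0.235). The median of the 8 was 1.29 and that of all genes -0.04.

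These jar1-11 calls rested on few WT libraries. Without WT drought 1 only 2 members were called, AT5G44310 (1.68, adjusted p = 0.00328) and AT2G42560 (1.66, adjusted p = 0.0134), and LEA4-5, LEA18 and EM1 fell to 0.65, 0.96 and 1.36 (adjusted p = 0.145, 0.0613 and 0.0517). LEA7 and AT3G17520 stood at 1.44 and 0.77 without it (adjusted p = 0.184 and 0.224). Leaving out WT drought 2 also left 2 calls, leaving out jar1-11 drought 1 left 3, and leaving out WT drought 3, the WT library with the highest level of all 10 members, gave 8. AT5G44310 was called in 12 of 12 alternatives.

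JAR1-OE lay lower than WT. Of the 8 tested members 6 were lower and 0 higher, against 5.84% and 10.1% of all genes, with a median of -3.71 against 0.01 over all genes. The differences were -4.57 ± 0.66 for AT2G42560 (adjusted p = 1.17e-04), -4.43 ± 0.48 for AT5G44310 (adjusted p = 1.60e-05), -4.21 ± 0.48 for AT3G17520 (adjusted p = 1.24e-05) and -3.79 ± 0.79 for LEA7 (adjusted p = 0.00288). The LEA_1 genes LEA18 and LEA4-5 differed by -3.64 ± 0.43 and -2.65 ± 0.32 (adjusted p = 1.73e-05 and 2.07e-05). EM1, at -0.99 ± 0.44, and LEA4-1, at -0.47 ± 0.44, did not pass (adjusted p = 0.154 and 0.524). The same 6 genes were called in 12 of 12 alternatives each, and without WT drought 1, the WT library with flower transcripts, LEA7 stood at -4.24 (adjusted p = 8.57e-04) and AT2G42560 at -5.09 (adjusted p = 2.46e-06).

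Set directly against jar1-11, JAR1-OE was lower in 7 of 8 members, where 25.3% of all genes were lower. The median was -5.04, and the largest differences were -6.74 ± 0.71 for AT2G42560 (adjusted p = 4.34e-07) and -6.40 ± 0.48 for AT5G44310 (adjusted p = 2.77e-08). EM1 differed by -2.39 ± 0.42 (adjusted p = 3.56e-04), and LEA4-1 by 0.23 ± 0.45 (adjusted p = 0.690), a difference that turned to -0.086 without JAR1-OE drought 2. Both comparisons with WT share the WT libraries. The photosynthesis markers ran in the opposite order under drought. Of the 6, 5 were lower in jar1-11 than in WT, where 17.9% of all genes were lower. In JAR1-OE 6 of 6 were higher than in WT, where 10.1% of all genes were higher. The part of these markers in the LEA differences was not tested. In 7 of the 8 tested members all JAR1-OE drought libraries lay below all WT ones and all jar1-11 ones above. This order was shown by 6.6% of all tested genes, whether or not they rose with drought. The share among genes that rose with drought, as the members were chosen to do, was not counted.

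**Figure D3:**
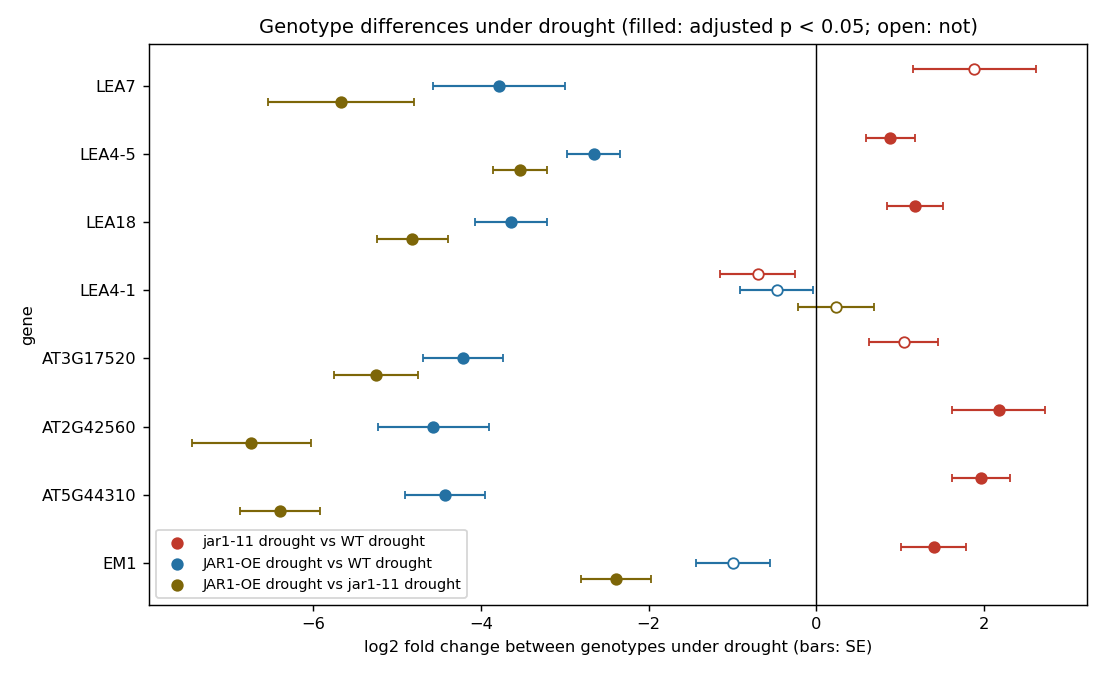
Differences between genotypes under drought for the 8 tested members, as log2 fold change (x axis) with bars of 1 SE. Filled points had an adjusted p under 0.05 and open points did not. 6 members lie left of 0 with filled points for JAR1-OE against WT, and the points of LEA4-1 are open in all 3 comparisons.

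The genes were chosen for watered levels near 0, so the tests between genotypes in watered leaves had little to work on and nothing is read from their counts. Of the 8 tested members 0 were called in jar1-11 against WT, where 0.00566% of all genes (1 gene) were called, and 0 in JAR1-OE against WT, where 10.5% were. By DESeq2 and limma-voom the counts were also 0. In edgeR, 2 members had an unadjusted p under 0.05 in jar1-11, LEA7 (-2.14 ± 0.97, adjusted p = 0.893) and AT3G17520 (-3.13 ± 1.31, adjusted p = 0.893). In JAR1-OE 0 had one. WT control 3 held 180 of the 203 watered WT reads of LEA7 and 20 of the 24 of AT3G17520. These are the watered levels the genes were chosen on, so nothing is read from the 2 differences either. The summed reads of all 10 members were 10 to 227 per watered library. The summed level was 2.1 to 31.8 CPM in watered WT, 3.92 to 6.20 in jar1-11 and 1.31 to 13.9 in JAR1-OE, and under drought 1840 to 8408, 12585 to 19700 and 282 to 492 CPM.

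Seed storage genes stayed low. Of 18 genes for storage proteins and oil body proteins, 17 were too low to be tested, and their summed level stayed between 1.18 and 7.73 CPM in all 18 libraries. The cruciferins CRU2 and CRU3, the albumins SESA2 to SESA5 and the oil body protein HSD1 had 0 reads throughout, and SESA1 had 1 read. OLEO5, an oleosin, was the tested one, and it rose by 1.63 ± 0.54 in WT (adjusted p = 0.0224) and 2.04 ± 0.55 in jar1-11 (adjusted p = 0.00380). In JAR1-OE its change of 1.41 was not called. Its WT libraries overlapped, with 1.76 CPM in WT drought 2 and 1.82 CPM in WT control 3. The OLEO5 calls were not recomputed under the alternatives. Of 7 embryo regulators, LEC1 and ABI4 had 0 reads and ABI3 1 read in all libraries together. FUS3 was tested and rose in JAR1-OE, by 1.70 ± 0.49 (adjusted p = 0.0140), from 0.642 ± 0.471 to 2.14 ± 0.206 CPM, a call lost without JAR1-OE control 2 (adjusted p = 0.0681) or 3 (adjusted p = 0.0823). The other 6 were too low to be tested. Under drought DOG1 had 17, 55 and 2 reads in jar1-11, 0, 6 and 0 in WT and 2, 1 and 5 in JAR1-OE. L1L had 9, 13 and 5 reads in jar1-11, 3, 4 and 3 in WT and 3, 0 and 3 in JAR1-OE. The summed level of the 7 under drought was 6.37 ± 3.63 CPM in jar1-11, 2.30 ± 0.756 in WT and 2.78 ± 0.293 in JAR1-OE.

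**Figure D4:**
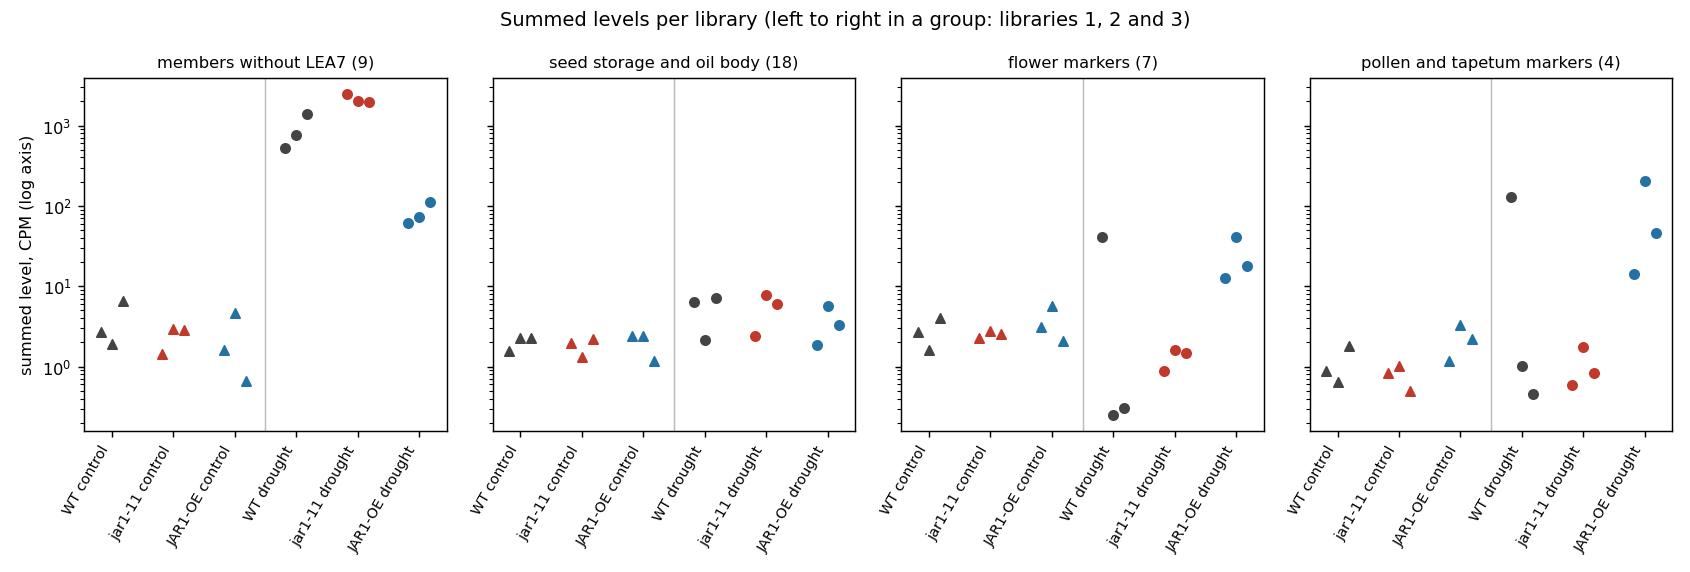
Summed levels per library, in CPM on a log axis, of 9 members (without LEA7), 18 seed storage and oil body genes, 7 flower genes and 4 pollen and tapetum genes. Within a group the points are libraries 1, 2 and 3 from left to right. The members reach 1985 to 2436 CPM in jar1-11 drought, storage genes stay at or under 7.73 CPM, and WT drought 1 is high in flower and pollen genes.

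Most bZIP factors of the class that binds ACGT cores rose with drought. Of 9 group A bZIP genes 8 were tested, and 7 rose in WT, 8 in jar1-11 and 6 in JAR1-OE, where 18.1%, 28.7% and 14.1% of all genes rose. Between genotypes under drought, 1 of the 8 was higher and 1 lower in jar1-11 than in WT (16.6% and 17.9% of all genes), 0 higher and 2 lower in JAR1-OE than in WT (10.1% and 5.84%), and 1 higher and 2 lower in JAR1-OE than in jar1-11 (28.2% and 25.3%). ABF2 rose by 2.78 ± 0.22 in WT (adjusted p = 1.37e-08), 3.47 ± 0.23 in jar1-11 (adjusted p = 4.23e-10) and 2.77 ± 0.23 in JAR1-OE (adjusted p = 4.80e-08), and it was lower in JAR1-OE than in WT under drought (-0.78 ± 0.20, adjusted p = 0.0138, and 0.0849 without JAR1-OE drought 1) and than in jar1-11 (-1.12 ± 0.21, adjusted p = 1.72e-04). ABF3 had the opposite order: under drought it was lower in jar1-11 than in WT (-1.29 ± 0.20, adjusted p = 1.34e-04) and higher in JAR1-OE than in jar1-11 by 1.69 ± 0.20 (adjusted p = 1.65e-06), at 65.3 ± 4.87 CPM in WT, 26.8 ± 5.91 in jar1-11 and 86.4 ± 10.5 in JAR1-OE. GBF4 was higher in jar1-11 than in WT by 0.50 ± 0.14 (adjusted p = 0.00868, and 0.0625 without WT drought 1), and its difference between JAR1-OE and WT, -0.41 ± 0.14 (adjusted p = 0.0482), was kept in 4 of 12 alternatives, while against jar1-11 JAR1-OE differed by -0.91 ± 0.14 (adjusted p = 2.49e-05). ABF1 rose in all 3 genotypes, by 0.74 to 1.15, with no genotype difference called under drought. ABI5, named for its known role at the Em genes and not by a rule, rose by 2.05 ± 0.39 in WT, 2.03 ± 0.40 in jar1-11 and 2.54 ± 0.42 in JAR1-OE (adjusted p = 3.74e-04, 2.88e-04 and 1.61e-04).

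Of 41 other LEA genes 28 were tested. Under drought 21 rose and 2 fell in WT (background 18.1% and 21.1%), and 25 rose and 1 fell in jar1-11 (28.7% and 29.7%). In JAR1-OE 19 rose and 0 fell (14.1% and 15.0%). The median changes of the 28 in these genotypes were 2.49, 3.50 and 1.90, against -0.01, -0.01 and 0.01 over all genes. Between genotypes under drought, 12 were higher and 2 lower in jar1-11 than in WT (median 0.75, with 16.6% of all genes higher and 17.9% lower), and 2 were higher and 12 lower in JAR1-OE than in WT (median -1.08, with 10.1% and 5.84%). With water 0 differed in jar1-11, where 0.00566% of all genes did, and 8 were lower in JAR1-OE, where 4.94% were.

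Among dehydrins, the K-segment LEA proteins that bind membranes, RAB18 rose from 122 ± 83.1 to 29327 ± 10540 CPM in WT, from 112 ± 10.1 to 59901 ± 5700 CPM in jar1-11 and from 68.9 ± 66.0 to 3692 ± 1193 CPM in JAR1-OE. LTI30 was 1.71 ± 0.29 higher in jar1-11 drought than in WT drought (adjusted p = 2.48e-04) and COR47 1.31 ± 0.20 higher (adjusted p = 1.19e-04), and both were lower in JAR1-OE (-2.20 ± 0.29 and -1.22 ± 0.20, adjusted p = 5.27e-05 and 3.58e-04). XERO1 rose from 0.323 ± 0.299 to 46.7 ± 9.38 CPM in WT and differed from WT in JAR1-OE (-2.34 ± 0.32, adjusted p = 6.66e-05) but not detectably in jar1-11 (0.22 ± 0.29, adjusted p = 0.584). Dehydrins summed to 45186 ± 13191 CPM in WT drought, 90904 ± 10783 CPM in jar1-11 drought and 13061 ± 2315 CPM in JAR1-OE drought, after group means of 4826 to 8239 CPM with water.

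Among other LEA_4 genes, AT3G02480 differed by -3.02 ± 0.40 in JAR1-OE against WT under drought (adjusted p = 5.47e-05) and by 0.95 ± 0.37 in jar1-11 (adjusted p = 0.0503). LEA76 was 1.58 ± 0.34 higher in jar1-11 (adjusted p = 0.00235) and lower in JAR1-OE (-1.95 ± 0.40, adjusted p = 0.00404), and AT4G36600 reached 10.3 ± 1.74 CPM in jar1-11 drought, with 5.99 ± 2.1 in WT and 2.59 ± 0.977 in JAR1-OE. COR15B, a cold-induced chloroplast protein, ran the other way: it fell by 2.61 on the log2 scale in WT (adjusted p = 3.89e-07) and by 3.20 in jar1-11 (adjusted p = 1.97e-08), and was 1.71 ± 0.26 higher in JAR1-OE than in WT under drought (adjusted p = 2.08e-04). Of the further types, DI21 rose from 53.0 ± 7.84 to 7539 ± 2517 CPM in WT and from 82.0 ± 21.1 to 862 ± 215 CPM in JAR1-OE. AT2G23110 stood at 37.1 ± 19.7 CPM in jar1-11 drought, 4.19 ± 3.72 in WT and 0.565 ± 0.101 in JAR1-OE. SAG21 and LEA14 differed less, 1.08 ± 0.23 and 0.72 ± 0.20 higher in jar1-11 than in WT under drought (adjusted p = 0.00150 and 0.00822), the LEA14 call being lost without WT drought 1 (adjusted p = 0.0688).

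**Figure D5:**
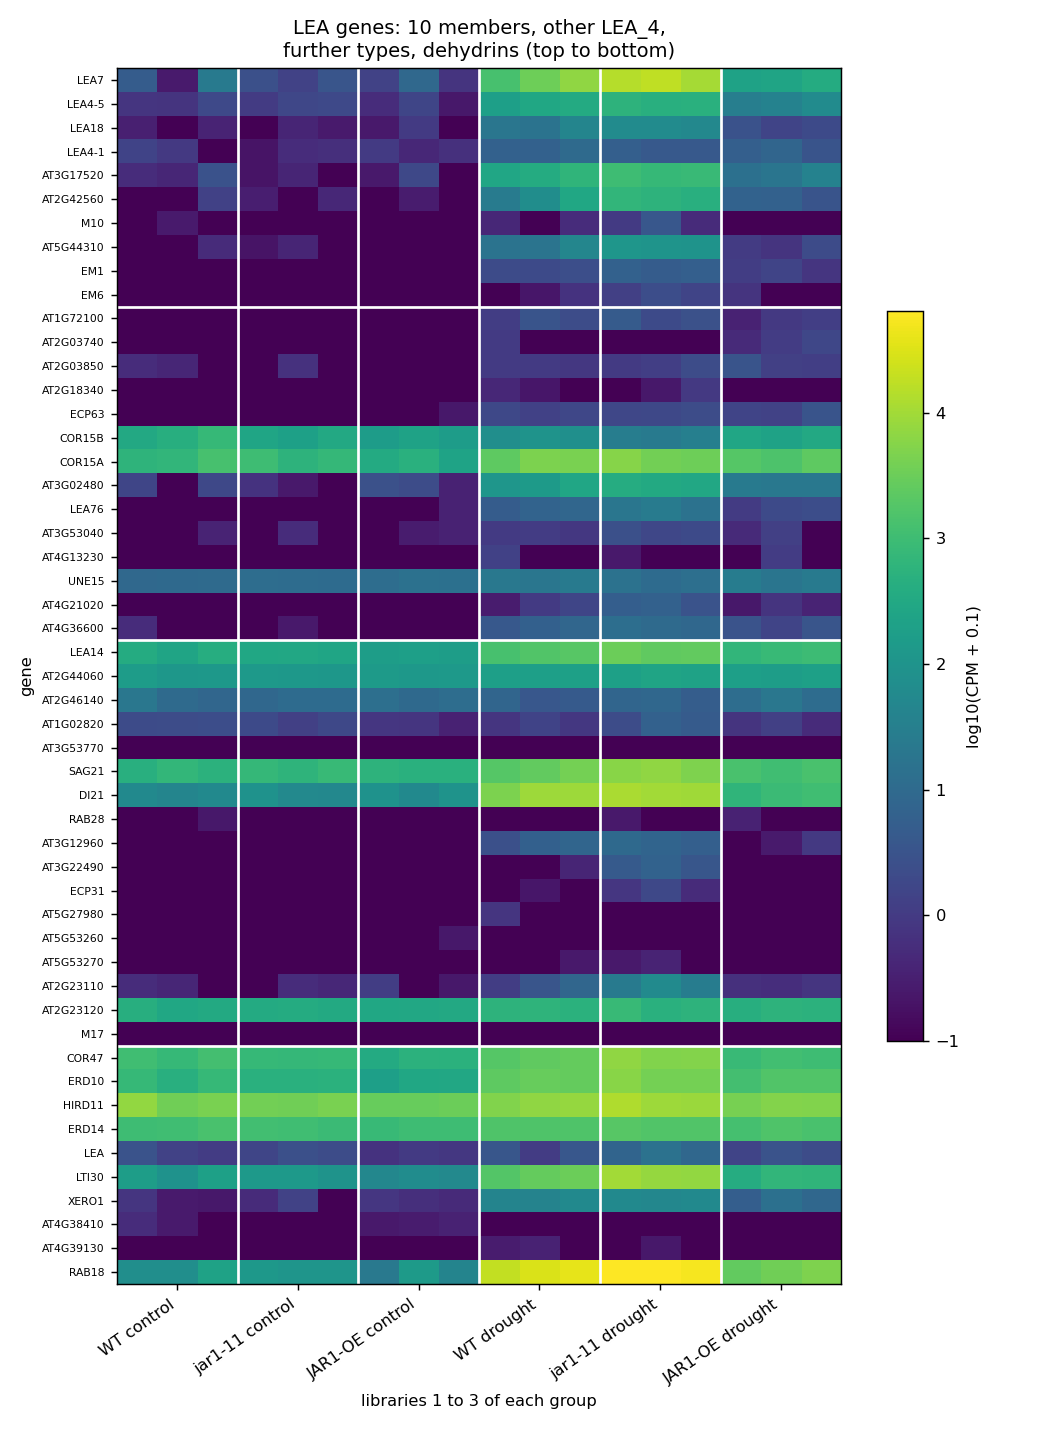
Heat map of log10(CPM + 0.1) of 51 LEA genes (rows) in 18 libraries (columns, 3 per group). White lines divide the 10 members, other LEA_4 genes, further types and dehydrins from top to bottom. The members are dark in the 9 watered libraries, while dehydrins such as COR47 are already bright there.

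Genes other than the 10 members whose levels ran most like theirs were found by the Pearson correlation of log2 CPM with the mean of the members' standardised values over the 18 libraries. The candidates were 12546 tested genes that averaged 10 CPM or more in a group, and other LEA genes were not left out. The 18 points share the drought contrast and library sizes, so the values describe likeness of pattern in these libraries. AT1G05340 came first (r = 0.996), with 12.3 ± 3.14 CPM in watered WT and 813 ± 530 CPM in WT, 4197 ± 1054 CPM in jar1-11 and 139 ± 42.4 CPM in JAR1-OE under drought. It was followed by ATAF1, a NAC transcription factor induced by drought and ABA (r = 0.991), the iron store ferritin FER1 (r = 0.990), AT5G66780 (r = 0.990), AT5G05220 (r = 0.989), SRG1 (r = 0.989), the aldehyde dehydrogenase ALDH2B4 (r = 0.988) and the proline synthesis gene P5CS2 (r = 0.988). Of these AT5G66780 and AT5G05220 were, like the members, near 0 in watered leaves, and under drought AT5G66780 reached 36.9 ± 11.3 CPM in WT, 113 ± 4.12 CPM in jar1-11 and 2.87 ± 0.456 CPM in JAR1-OE.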

How the data were processed

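Per the labels' protocols, RNA of whole rosettes was made into QuantSeq 3' mRNA libraries and sequenced as single reads of 50 bases. The deposited values are counts, per the file headers unique reads per gene, for 27655 genes and 1 transgene entry, which was kept out of totals and tests. No source used here names the aligner, counter, genome build or strand setting. Of the gene IDs, 27445 matched the TAIR10.1 annotation (27432 with equal length), which gave positions and sequence.

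TMM scaling and filterByExpr left 17678 genes tested and 9977 not, fitted with edgeR 4.0.16 under R 4.3.3, using all 18 libraries and 1 mean for each group. P-values of the quasi-likelihood test were adjusted by Benjamini-Hochberg over all tested genes (threshold 0.05). On data simulated after jar1-11 against WT under drought (17678 genes), the test recovered 50% of 100 genes changed 2-fold and 99% of the 100 with a 4-fold change, with 3.87% of 155 calls false. Folds of pooled reads carry exact 95% binomial intervals, and groups at 0 reads took a floor of 3 reads over the group. Within-group pairs of libraries (18) differed beyond sampling noise (chi-square over degrees of freedom 5.54 to 27.9). Alternatives were RLE scaling, totals without TMM, DESeq2 1.42.0, limma-voom (version 3.58.1), no filter, a fit of only 2 groups, a fold threshold, a replicate block and leaving out each library.

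The 10 genes and all lists were chosen with earlier results of these data known. Named were the 10, up to 4 genes per list with the smallest p among those called, all marker genes as lists, and the 8 genes most alike in pattern.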

Additional observations from a re-analysis of the deposited data

How the results depend on the processing

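Of 130 recomputed counts of called genes, 126 stayed within 1.5 times the reported count. The other 4 concern jar1-11 against WT under drought (5 of 8 members called), where leaving out 1 library gave 2 to 8 of 8 or 9 tested members. Leaving out 1 library gave 6 to 6 for JAR1-OE against WT and 7 to 8 for JAR1-OE against jar1-11. The watered comparisons gave 0 to 0, from which nothing is read at these levels. For the other LEA genes it gave 22 to 24 (WT drought), 26 to 27 (jar1-11 drought), 18 to 20 (JAR1-OE drought), 11 to 15 (jar1-11 against WT) and 12 to 16 (JAR1-OE against WT). LEA4-1 in JAR1-OE against jar1-11 was 0.23, and leaving out 1 library gave -0.086 (without JAR1-OE drought 2, adjusted p = 0.904) to 0.51, none of them called. LEA7 in jar1-11 against WT, not called (1.88), was called by limma-voom (2.17, adjusted p = 0.00642), with no filter (adjusted p = 0.0347), with only the 2 groups (adjusted p = 0.0269) and without WT drought 3 (adjusted p = 0.0230), and its range over alternatives was 0.00642 to 0.184. AT3G17520 changed likewise (0.00761 to 0.362). AT2G42560 lost its call by DESeq2 (adjusted p = 0.0829). The causes were not tested. Values of single genes and levels gave 1374 results on the same side, 10 newly called and 28 lost. All 120 recomputed mean levels (RLE, no TMM) moved by less than 1 SD.

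The labels give control and drought libraries different numbers, so a number shared between them comes from the numbering used here. Libraries of different groups that share a number had correlations of -0.28 to 0.19 (45 pairs, 7 over 0.1). Of 18 libraries, 2 correlated best with a library of their own number, so these numbers showed no pairing. With a replicate block on the same numbers, 7 members were called in jar1-11 against WT and 6 in JAR1-OE against WT under drought. It gave 7 in JAR1-OE against jar1-11 and 0 in each watered comparison. Counting total in place of unique gene reads was not run, since the files used here hold only the latter. At 0.316 to 0.636 CPM for 3 reads, depth limits watered levels of a few reads. Leaving out 1 library in the pooled drought folds was chosen after seeing the data.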
